A study of Homo sapiens with 14 samples.

Results

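The ZNF genes of chromosome 19 are a large, dense group of genes for C2H2 zinc finger proteins, most of them thought to bind DNA. They were taken as the protein-coding genes of the RefSeq annotation on chromosome 19 whose symbol starts with ZNF, 250 genes in all. Their H3K4me2 was read from the regions that overlap a gene's span or lie within 1 kb of it, which were 266 of the 54942 regions in the deposited count table. The other 2159 regions of chromosome 19 served as background, and 468 regions at 268 ZNF genes of other chromosomes as a second set for comparison. Genes were chosen by name and chromosome and regions by position, although earlier results of these data were known. The deposited list of regions was taken as given. All coordinates are hg38.

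The H3K4me2 mark was profiled by chromatin immunoprecipitation and sequencing (ChIP-seq) in a mesenchymal-like triple-negative breast cancer line, MDA-MB-231. The cells were given OICR-9429 or its solvent DMSO for between 24 and 96 hours, with no time stated for a single library. OICR-9429 is a small molecule that occupies WDR5, a subunit shared by the complexes that methylate H3K4. The comparison rested on 3 DMSO and 3 OICR-9429 ChIP libraries, numbered as biological replicates without a word on how the cultures were separated, so the p-values measure only the spread between these libraries, which may be technical.

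Libraries held 16483098 to 23509413 counts in regions. DMSO replicate 3 gave the highest normalised value of its group in 170 of 183 tested ZNF start regions, and OICR-9429 replicate 1 in 160 of 183. The same 2 libraries were highest in 533 and 529 of 558 start regions of other chromosome 19 genes. Beside the cell line's labels, 5 mesenchymal markers were looked at (VIM, ZEB1, AXL, CD44 and EGFR). All had a region at a gene end at 9.07 to 15.3 normalised CPM (read counts scaled to library size) per kb. Of 5 luminal markers, ESR1 had no such region, while PGR, GATA3, FOXA1 and SPDEF had one at 8.08 to 15.6 CPM per kb. The 2 ranges overlap, so these levels did not set a mesenchymal line apart from a luminal one. In a bulk ChIP sample a smaller share of marked cells and less mark per cell cannot be told apart.

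Most chromosome 19 ZNF genes arose by tandem duplication and stand in clusters of close paralogs. Many encode a KRAB domain, which recruits TRIM28 and through it SETDB1, the enzyme that places H3K9me3, and these proteins silence transposable elements. H3K4me2 marks active and poised promoters and many distal elements, while the last, finger-encoding exons of ZNF genes are known in many cell types for H3K9me3.

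Promoters of 4 genes are shown because they stand for the contrasts that follow. ZNF274 and ZNF626 had a region at the start site that rose with OICR-9429, while ZNF582 and ZNF208 had no region. Each line gives the 250 bases before the start site, 5′ to 3′ on the gene's strand, from RefSeq sequence of GRCh38.p14, with CpG dinucleotides in capitals. The windows are chr19:58182811-58183060 (ZNF274, plus strand), chr19:20661572-20661821 (ZNF626, minus), chr19:56393535-56393784 (ZNF582, minus) and chr19:22010944-22011193 (ZNF208, minus).
ZNF274: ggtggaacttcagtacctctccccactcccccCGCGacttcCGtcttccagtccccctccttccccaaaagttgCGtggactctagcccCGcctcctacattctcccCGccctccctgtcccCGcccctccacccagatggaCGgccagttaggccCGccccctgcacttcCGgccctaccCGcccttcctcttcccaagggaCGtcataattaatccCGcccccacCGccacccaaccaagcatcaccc
ZNF626: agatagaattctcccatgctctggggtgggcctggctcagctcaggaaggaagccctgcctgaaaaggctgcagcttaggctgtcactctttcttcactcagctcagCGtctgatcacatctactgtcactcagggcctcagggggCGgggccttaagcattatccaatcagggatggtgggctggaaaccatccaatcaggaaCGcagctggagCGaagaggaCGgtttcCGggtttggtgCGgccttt
ZNF582: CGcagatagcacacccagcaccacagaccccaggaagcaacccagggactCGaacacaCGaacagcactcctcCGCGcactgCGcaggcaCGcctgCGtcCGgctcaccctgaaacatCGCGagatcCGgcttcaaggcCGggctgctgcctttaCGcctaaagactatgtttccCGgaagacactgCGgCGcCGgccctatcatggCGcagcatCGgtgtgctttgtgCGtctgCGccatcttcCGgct
ZNF208: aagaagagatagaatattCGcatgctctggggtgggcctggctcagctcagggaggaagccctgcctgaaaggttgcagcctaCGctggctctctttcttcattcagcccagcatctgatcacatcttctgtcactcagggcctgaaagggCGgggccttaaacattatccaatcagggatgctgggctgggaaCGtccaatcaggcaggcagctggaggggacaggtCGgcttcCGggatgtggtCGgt
The ZNF582 window held 23 CpG dinucleotides and the ZNF274 window 14, against 7 in each of the other 2. ZNF626 and ZNF208, paralogs of the same cluster, were identical at 215 of 250 aligned bases (86.0%), yet one start site lay in a region and the other did not.

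Of the 250 ZNF genes, 219 (87.6%) had at least 1 H3K4me2 region and 31 had none. Among other protein-coding genes of chromosome 19 the share was 885 of 1201 (73.7%), and among ZNF genes of other chromosomes 91.4%. A start site was listed in RefSeq's promoter table for 219 of the 250 genes, not all the same as the 219 with a region, and 186 of these (84.9%) had a region over it. The same held for 606 of 966 other chromosome 19 genes (62.7%) and for 190 of 218 ZNF genes elsewhere (87.2%). A single region was the rule: 166 genes had 1, 40 had 2, 8 had 3, 3 had 4, and ZNF507 and ZNF787 had the most with 5 and 6. Neighbouring genes shared regions, since 27 of the 266 touched 2 ZNF genes.

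The regions were sorted by their place on the gene. Of the 266, 187 lay within 1 kb of a ZNF start site (start regions), 10 within 1 kb of a 3′ end, 26 within 1 kb of another end of a gene span, where the table gave no start site, and 43 inside the gene. For 31 genes no start site was listed, so a region at such a start may count as lying at another end or inside. A ZNF start region was shorter than other start regions of chromosome 19, at a median of 2794 bp against 4564 bp, but its level per length was alike, at 9.13 against 8.75 normalised CPM per kb in DMSO. ZNF regions inside genes had a median of 4.12 CPM per kb. Around 135 ZNF start sites that were the only one in their region, the region ran a median of 884 bp upstream and 1768 bp downstream. For 295 such sites of other chromosome 19 genes the distances were 1266 bp and 2883 bp.

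Of the 31 genes without a region, 10 lay in 1 stretch and the others elsewhere on the chromosome. ZNF208, ZNF257, ZNF676, ZNF729, ZNF98, ZNF492, ZNF99, ZNF723, ZNF728 and ZNF730 lie between the end of the last region at ZNF43 and the first at ZNF724, chr19:21852687-23248622, an interval of 1396 kb with no region of any kind. Among intervals between neighbouring regions of chromosome 19 it was the second longest, after the 3702 kb that span the centromere, and the next, of 1101 kb, holds ZNF536. Closer to the short-arm end, the start regions of ZNF66, ZNF85, ZNF430 and ZNF100 were in the region list with at most 1 count in each of the 6 libraries, so they could not be tested. Such near-empty entries were not limited to ZNF genes, since 46 chromosome 19 regions had at most 1 count in every library and 843 regions of the whole table (1.53%) had 0 in all 6. Whether mapping to near-identical paralogs, the counting or the mark itself left these places empty was not tested, and an absent region here is not evidence of an absent mark.

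Other genes without a region included ZNF382, ZNF471, ZNF154, ZNF582 and ZNF677, whose promoters are reported as methylated in tumours. They belong to a list of 8 such genes, of which 2 had a region at an end of the gene span. At the ZNF671 start site the 6 libraries gave 9.71, 7.96 and 10.2 normalised CPM with DMSO and 12.4, 9.62 and 10.7 with OICR-9429. The region at ZNF132, shared with ZNF324B, gave 7.57, 8.76 and 10.6 with DMSO and 13.8, 11.2 and 9.18 with OICR-9429. The groups overlapped in both, and neither passed the test (log2 fold changes 0.23 ± 0.15 and 0.35 ± 0.17 SE, adjusted p = 0.255 and 0.125, edgeR's quasi-likelihood test), the ZNF132 region passing without DMSO replicate 3 (adjusted p = 0.0497) or without OICR-9429 replicate 3 (adjusted p = 0.0451). ZNF671 also had one of the lowest start-region levels of the family, 4.22 CPM per kb in DMSO.

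The eighth gene of that list, ZNF331, is imprinted and uses several start sites. It had no region at the ends of its span but 2 at start sites within it, chr19:53520250-53522652 and chr19:53537146-53539691. The first gave 23.2, 22.7 and 28.1 normalised CPM with DMSO and 41.2, 34.4 and 29.7 with OICR-9429, and the second 10.1, 9.34 and 13.7 against 19.5, 15.6 and 14.4. In neither did the groups overlap, and both rose (log2 fold changes 0.51 and 0.58, adjusted p = 0.0185 and 0.0181, edgeR's quasi-likelihood test). Both calls were lost with library totals (adjusted p = 0.0557 and 0.0715, edgeR), without DMSO replicate 1 (0.114 and 0.110) or 2 (0.107 and 0.136) and without OICR-9429 replicate 1 (0.0829 and 0.0620). The first was also lost under loess (0.133).

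ZNF start sites inside and outside regions differed less in CpG content than those of other chromosome 19 genes. A promoter was the 300 bases from 250 before to 50 after a start site, and its CpG observed/expected ratio compares the CpG count with that expected from its C and G content. Of 271 ZNF start sites 217 (80.1%) lay in a region, of which 78.3% had a ratio of at least 0.6, against 66.7% of the 54 outside regions. For other chromosome 19 genes the shares were 81.7% and 21.9%. At ratios under 0.4, where 72 of 360 start sites of other genes lay in a region (20.0%), 11 of 18 ZNF start sites did (61.1%). Counted, by a choice made after seeing the data, without regions that hold at most 1 count in every library, such as those at ZNF66 and ZNF85, the shares were 71 of 360 (19.7%) and 9 of 18 (50.0%). No test of this difference between gene sets was run. The 54 ZNF start sites outside regions belong to 43 genes, of which only 24 had no region at all. Of the 30 listed promoters of ZNF genes with no region at all, 24 (80.0%) had a ratio of at least 0.6.

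**Figure D1:**
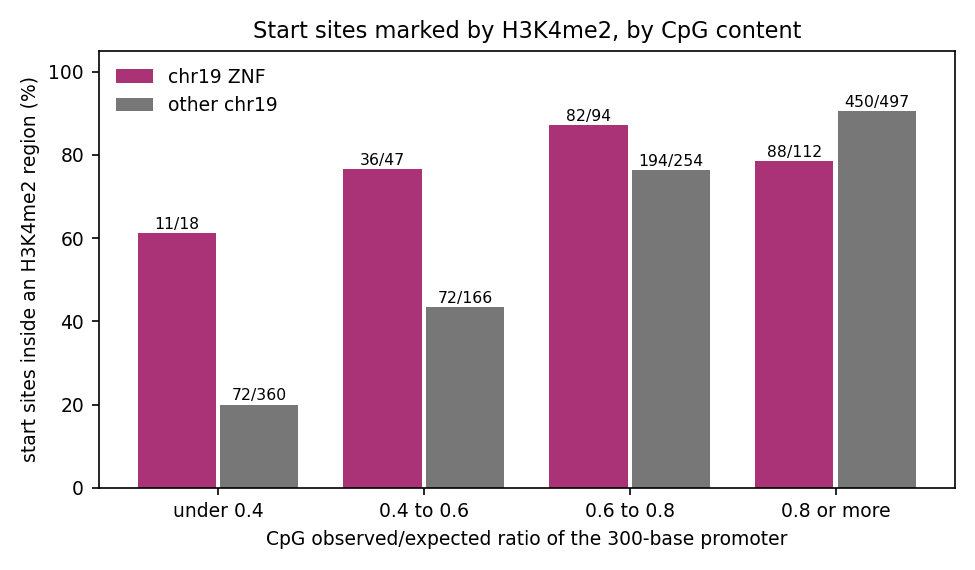
Share of annotated start sites inside an H3K4me2 region (vertical axis, percent) by the CpG observed/expected ratio of the promoter (horizontal axis), for ZNF genes (purple) and other protein-coding genes (grey) of chromosome 19. Numbers over the bars are start sites in a region over all start sites. The grey bars climb from 20.0% to 90.5%, while the purple bars run from 61.1% to 87.2%. Listed regions with almost no counts are included.

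The letters CCGGAAG, a core that ETS factors bind, stood on either strand in 111 of 271 ZNF promoters (41.0%), against 12.8% of all 22199 protein-coding promoters of the same length, 13.2% of those of other chromosome 19 genes and 28.4% of those of ZNF genes elsewhere. The share was 41.0% where the start site lay in a region and 40.7% where it did not, so these letters did not separate the marked from the unmarked ZNF promoters. Among the printed windows those of ZNF274, ZNF582 and ZNF208 hold them and that of ZNF626 does not. TATAAA stood in 2.58% of ZNF promoters against 9.47% of all, and the E-box CACGTG in 4.43% against 8.34%. A stretch of 31 bases found in the promoter of another gene was present in 54 of the 271, and covered at most 20% of any of them, so few promoters in this table were near-copies by that measure.

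With OICR-9429, H3K4me2 at the start sites of chromosome 19 ZNF genes was higher in most tested regions, by a small amount. Of 266 regions 255 had enough counts to be tested; 154 of these (60.4%) were higher and 4 (1.57%) lower at an adjusted p under 0.05, and the median change was 0.41 on the log2 scale. In the same fit, with TMM scaling, 17.0% of all regions were called higher and 14.0% lower, and 23.1% and 9.38% of other chromosome 19 regions. Start sites differed from other places outside the family too. Start regions of all protein-coding genes were called higher in 52.7% and lower in 2.43%, those of other chromosome 19 genes in 47.3% and 3.41% (median 0.37), and the ZNF start regions in 128 of 183 (69.9%, median 0.43) and 0. Before adjustment 150 ZNF start regions passed p under 0.05 in the higher and 0 in the lower direction, and DESeq2 called 113 and 0. For the 558 tested start regions of other chromosome 19 genes these counts were 361 and 25, and 226 and 19 by DESeq2. ZNF start regions on other chromosomes were much the same as ZNF start regions of chromosome 19, at 119 of 195 higher (61.0%), 0 lower and a median of 0.41. No test between these sets was run.

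**Figure D2:**
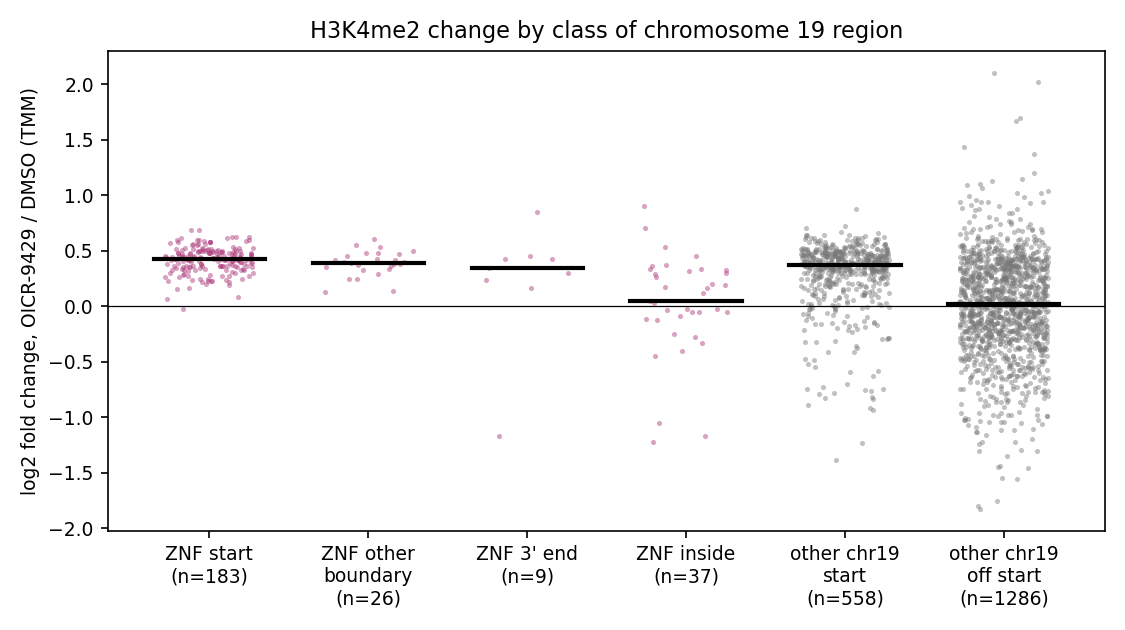
Log2 fold change of H3K4me2, OICR-9429 over DMSO with TMM scaling (vertical axis), for each tested region of chromosome 19 by class, with ZNF regions in purple and all others in grey. Each point is 1 region and each black line a median. ZNF start regions lie in a narrow band around 0.43 with none called lower, while regions inside ZNF genes centre on 0.048.

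Inside the genes few regions passed the test. Of 37 tested there 5 were higher and 3 lower. Their median was 0.048 on the log2 scale and took the other sign with library totals (-0.16), and 10.1% of other chromosome 19 regions inside genes were called higher and 11.7% lower. The 9 tested regions at 3′ ends gave 4 higher and 1 lower. The 26 at other span ends gave 17 higher and 0 lower (21 and 0 before adjustment, 13 and 0 by DESeq2), close to the start regions. The 10 start regions shared with the start of a gene that is not ZNF were all called higher. Beside these counts, 17.0% of all regions were called higher and 14.0% lower. Over start regions of all protein-coding genes the shares were 52.7% and 2.43%.

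A count without a model compared the libraries in normalised CPM. These values carry the TMM scaling, so the count is not free of it. In 145 of 183 ZNF start regions every OICR-9429 library lay above every DMSO library, and in 0 every one lay below; the shares were 49.5% and 4.66% over start regions of other chromosome 19 genes and 63.8% and 3.68% over those of all genes. Over all 255 tested ZNF regions 180 lay above and 5 below, against 28.6% and 15.0% of other chromosome 19 regions and 24.8% and 21.5% of all regions. The lowest log2 fold changes among start regions were at ZNF587B (-0.027) and ZNF699 (0.064), neither called. ZNF587B also had the lowest level among tested start regions, 1.28 CPM per kb in DMSO.

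The size of the rise depends on the scaling. Scaling by library totals moved the median of all regions from 0.033 to -0.17, and 56 ZNF regions were then called higher and 5 lower (all regions 6.45% and 23.4%, other chromosome 19 regions 9.06% and 17.5%). Offsets from a loess curve, which take out any trend with abundance in each library, left 20 higher and 4 lower (all regions 5.22% and 8.91%, other chromosome 19 regions 6.72% and 8.46%). Under loess the median of ZNF start regions was 0.18 against 0.073 in start regions of other chromosome 19 genes, with 13 higher and 0 lower against 25 higher and 35 lower. The count also rests on single libraries: leaving out DMSO replicate 1 or 2 left 16 or 12 ZNF regions called higher, leaving out replicate 1 or 2 of OICR-9429 left 62 or 80, and 4 were called lower in each case. Shares over all regions in these fits are not given here, so the drop is not read as a trait of ZNF regions. Under all 4 scalings (TMM, library totals, DESeq2 size factors and loess) 13 ZNF regions (5.10%) were higher and 4 (1.57%) lower, against 2.04% and 6.41% of all regions.

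A share within a library needs no scaling between libraries. ZNF regions took 13.3%, 12.9% and 13.0% of all chromosome 19 counts with DMSO and 14.0%, 14.1% and 14.5% with OICR-9429. The groups did not overlap, and the means of 13.1% ± 0.243 and 14.2% ± 0.257 (SD, n = 3) differed by 1.15 percentage points. Among counts in start regions alone, ZNF regions took 16.9%, 16.5% and 16.1% with DMSO and 16.9%, 17.2% and 17.5% with OICR-9429, and here the groups overlapped. Start regions of any gene on the chromosome took 63.7% ± 1.36 of its counts with DMSO and 67.3% ± 0.659 with OICR-9429, so the shift towards start sites was shared with genes outside the family. Regions inside ZNF genes took 0.787% ± 0.0561 and 0.737% ± 0.0615, with overlap.

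**Figure D3:**
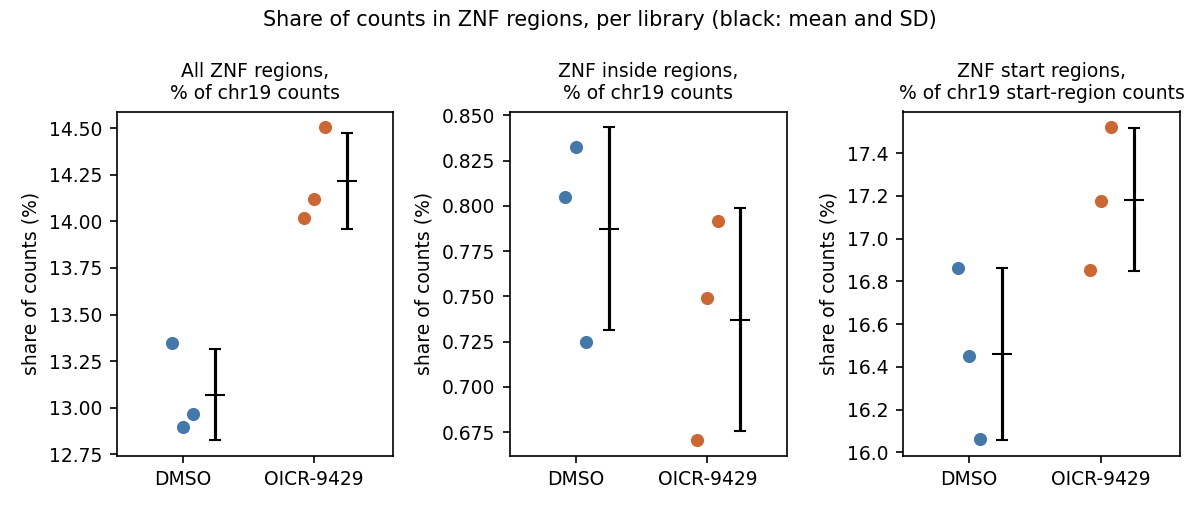
Share of counts (vertical axes, percent, not starting at 0) per library with DMSO (blue) and OICR-9429 (orange), for all ZNF regions and for regions inside ZNF genes as a share of chromosome 19 counts, and for ZNF start regions as a share of counts in start regions. Black marks give the mean and SD of 3 libraries. The groups are apart in the first panel (13.1% and 14.2%) and overlap in the others.

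Start regions were also set side by side within bands of level. Chromosome 19 start regions were put in 4 bands of equal size by mean normalised CPM. In the lowest band (0.558 to 28.2), 36 of 62 ZNF regions were called higher (58.1%, median log2 fold change 0.39), against 13 of 124 others (10.5%, median 0.089), of which 17 were lower. Even so the ZNF regions of that band had the higher levels, at a median of 22.1 against 15.6 CPM. In the next band 60 of 79 ZNF regions (75.9%) and 53 of 106 others (50.0%) were higher, and the medians, 0.44 and 0.40, were nearer. Under loess the medians of the lowest band were 0.26 and 0.025. Across 177 ZNF start regions the rise followed no property closely: Spearman's rho with CpG ratio was 0.17, with DMSO level 0.074 and with region length 0.044, all from the same 6 libraries.

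By physical cluster, formed by joining genes less than 500 kb apart, the genes fell into 10 clusters of at least 5, with 14 genes outside. With TMM scaling, every cluster had a positive median start-region change and 0 start regions called lower, each gene entering by 1 start region. The smallest cluster towards the short-arm end, chr19:2819868-2944971, with ZNF554, ZNF555, ZNF556, ZNF57 and ZNF77, had the highest median, 0.59, and its 4 tested start regions were all higher (0.57 to 0.63), against 52.7% of all start regions of protein-coding genes. ZNF556 had no region. In the 25-gene cluster at chr19:11483429-12633834, from ZNF653 to ZNF791, every gene had a region, and 12 of 23 start regions were called (52.2%, median 0.38), near that share. The cluster from ZNF101 to ZNF254, chr19:19668153-24129968, held 37 genes, 10 of them the region-free genes above, and 12 of its 20 tested start regions were higher. The largest, with 43 genes from ZNF264 to ZNF446 near the long-arm end, chr19:57191500-58489533, gave 26 of 35.

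**Figure D4:**
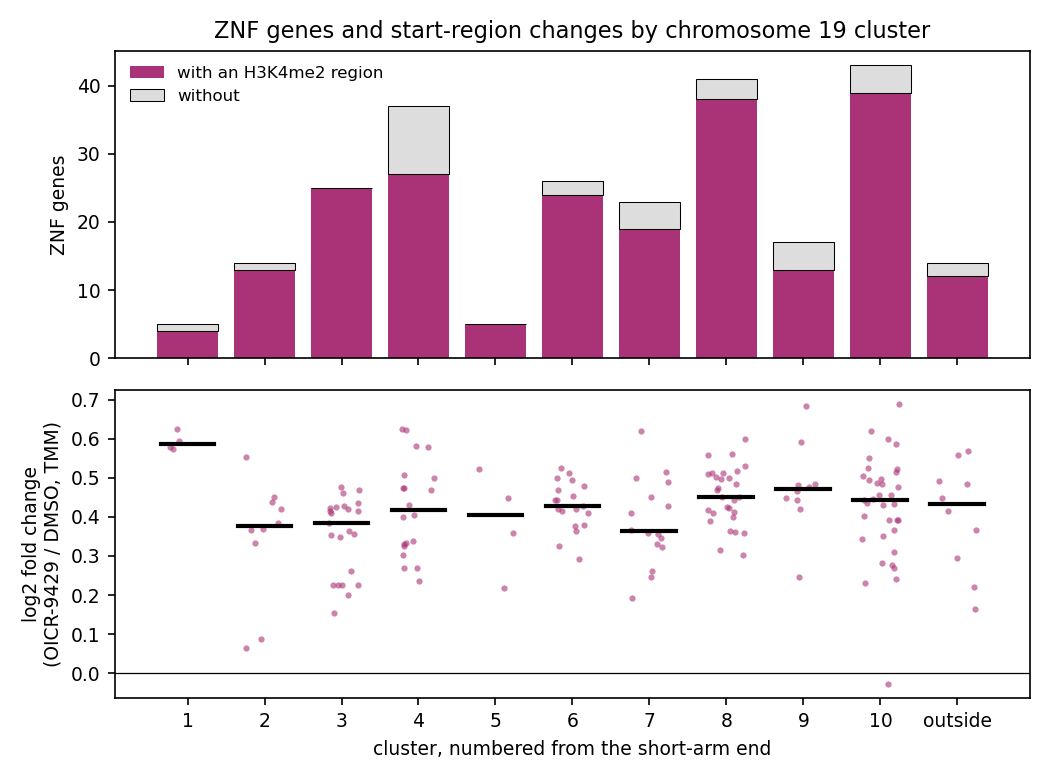
Upper panel, number of ZNF genes with (purple) and without (grey) an H3K4me2 region in each of 10 clusters, numbered from the short-arm end, and outside clusters. Lower panel, log2 fold change (OICR-9429 over DMSO, TMM) of 1 start region per gene, with black lines at the medians. Cluster 4 has the most genes without a region, 10 of 37, and cluster 1 the highest median, 0.59.

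Single regions show how the rise looked. The largest rises and falls were chosen partly for groups that do not overlap, so their separation follows from the choice. ZNF274, a KRAB protein known to bring SETDB1 to the 3′ ends of other ZNF genes, had the largest rise among start regions with TMM scaling, just above ZNF470. Under loess other start regions exceeded its 0.42, the second of ZNF331 (0.57) by the most. Its region chr19:58181947-58184948, which holds the start site after the printed ZNF274 promoter, gave 25.7, 21.6 and 28.6 normalised CPM with DMSO and 46.3, 39.7 and 36.2 with OICR-9429. The groups were well apart, and the log2 fold change was 0.69 ± 0.14 (SE, adjusted p = 0.00493, edgeR's quasi-likelihood test); it passed the threshold in each of 14 alternatives with a change of 0.42 to 0.79.

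ZNF626, whose CpG-poor promoter is printed above, gave 18.7, 16.4 and 18.6 with DMSO and 30.1, 25.3 and 27.4 with OICR-9429 at chr19:20659356-20661587. These groups were also apart (0.62 ± 0.13, adjusted p = 0.00503). ZNF43, in the same cluster and the last gene before the interval without regions, gave 16.3, 11.8 and 15.1 against 24.8, 21.6 and 19.9 at chr19:21835293-21836941 (0.62 ± 0.15, adjusted p = 0.00894, edgeR's quasi-likelihood test). The ZNF43 call was lost without DMSO replicate 2 (adjusted p = 0.0773, edgeR).

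The region shared by ZNF470 and its divergent transcript ZNF470-DT, chr19:56566453-56568743, gave 20.8, 18.2 and 24.4 with DMSO and 39.6, 32.2 and 29.9 with OICR-9429, again without overlap (0.68 ± 0.15, adjusted p = 0.00608, edgeR's quasi-likelihood test). ZNF77, of the short-arm cluster, gave 22.8, 19.7 and 28.03 against 41.1, 33.3 and 34.2 at chr19:2943878-2946298 (0.63 ± 0.15, adjusted p = 0.00883). Its call was lost without DMSO replicate 2 (adjusted p = 0.0587, edgeR).

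The 3 largest rises lay away from listed start sites. A region of 1067 bp inside ZNF610, chr19:52336494-52337560, gave 4.78, 3.50 and 5.42 normalised CPM with DMSO and 9.44, 7.35 and 8.79 with OICR-9429, from 66 to 201 counts (0.90 ± 0.18, adjusted p = 0.00449, edgeR's quasi-likelihood test). At the 3′ end of ZNF320, chr19:52860342-52861030, the values were 2.79, 3.45 and 2.01 against 4.89, 4.87 and 5.11 (0.85 ± 0.20, adjusted p = 0.00981). That call was lost with library totals (adjusted p = 0.0506, edgeR) and without DMSO replicate 1 (0.0536). Both regions were small and low, and their groups did not overlap.

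ZNF787 carried the most regions, and 2 of its 6 rose. A region of 4021 bp inside the gene, chr19:56089720-56093740, gave 22.5, 20.7 and 29.0 with DMSO and 43.7, 35.3 and 38.6 with OICR-9429 (0.71 ± 0.15, adjusted p = 0.00512, edgeR's quasi-likelihood test), and its start region had a change of 0.59. The start call was lost under loess and without DMSO replicate 1 (adjusted p = 0.0720) or 2 (0.0784, edgeR). The other 4 held under 2 CPM in each library, and 2 of them were too low to test.

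All 4 called falls lay away from listed start sites and at low levels. Inside ZNF599, chr19:34793152-34794274, the libraries gave 8.37, 7.69 and 8.24 with DMSO and 4.46, 3.96 and 3.17 with OICR-9429, far apart (log2 fold change -1.06 ± 0.17, adjusted p = 0.00121, edgeR's quasi-likelihood test). At the start region of the same gene the change was 0.22 and not called, while a region at its other end, at a DMSO mean of 3.91, was called higher (0.54, adjusted p = 0.0361, edgeR's quasi-likelihood test). That call held in 2 of 14 alternatives and was lost without any 1 of the 6 libraries (adjusted p = 0.0660 to 0.167, edgeR), whereas the fall held in 14 of 14.

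ZNF507, a gene with 5 regions outside the clusters, had a fall at chr19:32355628-32356911, where 2.74, 3.08 and 2.06 with DMSO stood against 1.03, 1.30 and 1.03 with OICR-9429 (-1.22 ± 0.25, adjusted p = 0.00449, edgeR's quasi-likelihood test). Its widest inner region, 5352 bp, was not called (-0.13), nor was its start region (0.17). The ZNF507 fall rested on 38 to 58 counts per DMSO and 16 to 23 per OICR-9429 library.

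Downstream of ZNF776, 244 bp past the gene at chr19:57758392-57760363, the values were 4.40, 5.04 and 3.36 against 2.54, 1.87 and 1.16 (-1.17 ± 0.25, adjusted p = 0.00624, edgeR's quasi-likelihood test). The start region of ZNF776 moved the other way, from 21.95, 21.97 and 21.96 to 30.9, 29.4 and 29.3, and was called higher (0.45). The start call held in 9 of 14 alternatives and was lost without DMSO replicate 1 (adjusted p = 0.107) or 2 (0.0694) or OICR-9429 replicate 2 (0.0507, edgeR).

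ZNF91, which silences SVA and other retrotransposons, held the faintest of the falls. The 490 bp inside the gene, chr19:23381375-23381864, gave 1.56, 1.75 and 1.68 with DMSO and 0.705, 0.792 and 0.711 with OICR-9429 (-1.17 ± 0.26, adjusted p = 0.00703, edgeR's quasi-likelihood test), from 11 to 33 counts. At the ZNF91 start, chr19:23393428-23396103, 22.1, 19.5 and 23.5 stood against 31.2, 26.1 and 24.1, without overlap but not past the threshold (0.32 ± 0.14, adjusted p = 0.0802). It passed without DMSO replicate 3 (adjusted p = 0.0419, edgeR).

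**Figure D5:**
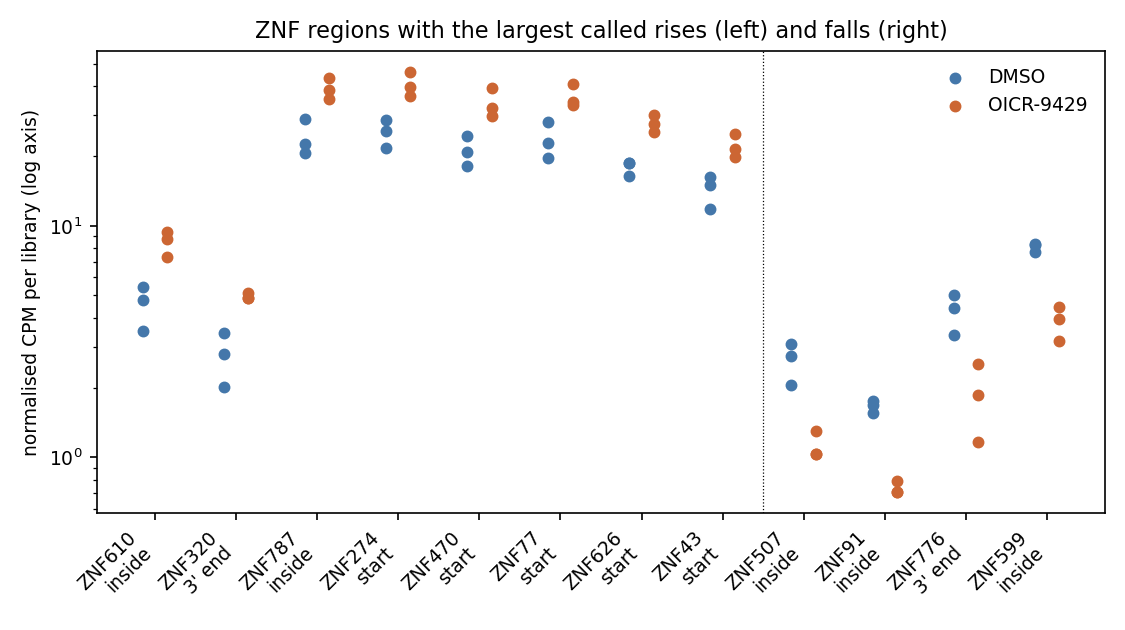
Normalised CPM in each library (vertical log axis) at the 8 regions with the largest called rises and the 4 called falls, with DMSO in blue and OICR-9429 in orange. Each point is 1 library. All 12 regions were chosen partly for groups that do not overlap, so that trait is not a result. The falls lie at under 10 CPM.

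ZNF93, a repressor of LINE-1 elements, gave 27.9, 25.6 and 33.8 normalised CPM with DMSO and 40.6, 35.9 and 39.0 with OICR-9429 at its start region, chr19:19899697-19902815. The groups were apart, and the change of 0.40 ± 0.13 passed narrowly (adjusted p = 0.0329, edgeR's quasi-likelihood test). Leaving out any library but DMSO replicate 3 ended that call, as did library totals, loess and both other count filters.

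Regions with a high level per length were also described. Among regions at an end of a gene span ZNF584 had the top level, 18.4 CPM per kb over the 6 libraries, and 57.3, 52.7 and 72.3 normalised CPM with DMSO overlapped 68.6, 65.0 and 67.0 with OICR-9429. Its change of 0.14 ± 0.13 was not called (adjusted p = 0.436, edgeR's quasi-likelihood test) and took the other sign with library totals, with loess and without DMSO replicate 2. In DMSO, 2 start regions within gene spans stood higher than its 17.5 CPM per kb. One, in ZNF324B at 21.0 CPM per kb, had overlapping groups and a called change of 0.43 (adjusted p = 0.0335, edgeR's quasi-likelihood test) that held in 5 of 14 alternatives. It was lost without DMSO replicate 1 or 2 or OICR-9429 replicate 1 or 2 (adjusted p = 0.0696 to 0.189, edgeR). The other, at the start site of ZNF584 itself, stood at 18.99 CPM per kb, and its groups did not overlap (0.48, adjusted p = 0.0128, edgeR's quasi-likelihood test). That call was lost under loess and without DMSO replicate 1 (adjusted p = 0.0736) or 2 (0.0773, edgeR). ZNF428 was not called either (0.35, adjusted p = 0.0667, edgeR), although its groups, 30.3 to 37.5 and 37.7 to 48.1 CPM, just failed to overlap, and it passed without DMSO replicate 3 (adjusted p = 0.0131). At ZNF792 72.1, 69.5 and 89.3 with DMSO stood against 116, 103 and 113, and at ZNF554 21.1, 19.3 and 23.1 against 36.7, 30.04 and 27.5, neither with overlap. These 2 genes, ZNF433 and ZNF441 rose by 0.42 to 0.57 on the log2 scale, but these calls were lost under loess and without DMSO replicate 1 or 2. Of 14 alternatives the call held in 11 for ZNF792, 11 for ZNF554, 10 for ZNF433 and only 6 for ZNF441.

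Genes for proteins through which KRAB factors act also had small changes. Of 32 cofactor and heterochromatin genes, 28 tested regions gave 13 higher and 0 lower (median 0.34), against the 52.7% higher of all start regions, and under loess 0 were higher and 1, at HDAC1, lower (-0.36). No start site was listed for TRIM28, the KRAB corepressor, so its promoter could not be told apart within its region. That region, chr19:58543099-58561177, also lies within 1 kb of the 3′ end of the zinc finger gene MZF1. It gave 143, 126 and 167 normalised CPM with DMSO and 237, 196 and 201 with OICR-9429, groups that did not overlap, and rose by 0.54 ± 0.13 on the log2 scale (adjusted p = 0.00822, edgeR's quasi-likelihood test). The TRIM28 call was lost under loess (adjusted p = 0.0557) and without DMSO replicate 2 (0.0521, edgeR). SETDB1, the H3K9 methyltransferase, rose by 0.40, a call that held in 4 of 14 alternatives and was lost without any 1 library but DMSO replicate 3 (adjusted p = 0.0571 to 0.192, edgeR), and its partner ATF7IP was not called (0.23, adjusted p = 0.247, edgeR). The regions at EHMT2 and DAXX were among those with almost no counts.

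C2H2 genes of chromosome 19 with other names were mostly higher too, with 10 of 11 tested regions called higher, against 52.7% of all start regions of protein-coding genes, and a median of 0.48 (1 higher and 0 lower under loess). One of the 10 is the TRIM28 region, counted here for MZF1 and already among the cofactors. The exception, ZSCAN4, a gene known from early embryos and telomere maintenance, fell by 0.58 on the log2 scale at a low level, from 4.99, 4.78 and 5.42 to 3.29, 4.13 and 2.71 normalised CPM (adjusted p = 0.0322, edgeR's quasi-likelihood test), and was not called under loess, with the replicate block or without any 1 of DMSO replicates 1, 2 and 3 and OICR-9429 replicate 3 (adjusted p = 0.0618 to 0.0845 without 1 library, edgeR).

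The 1 kb margin admitted few regions. Of the 266 regions 260 overlap a gene span and 6 lie outside it. The farthest of these, 932 bp from ZNF552, had a log2 fold change of 0.38, and the nearest region left out, 1446 bp from ZNF8, one of 0.48.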

How the data were processed

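H3K4me2 ChIP-seq counts of 3 DMSO and 3 OICR-9429 libraries were analysed; inputs and the untreated library were not used here. The authors deposited raw read counts over 1 region set and, per the submitters' processing notes, used Bowtie, MACS2, deepTools, featureCounts and DESeq2 with hg38 and dm6; their versions and the handling of multi-mapped or duplicate reads are not stated by any source used. Reads from near-identical paralogs may be split or lost, so values of single ZNF genes carry that uncertainty. Spike-in factors were not used, so changes are relative to all regions.

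All 54942 regions were fitted with edgeR 4.0.16 in R 4.3.3 (filterByExpr, 51156 tested; TMM; robust glmQLFit; Benjamini-Hochberg over all tested regions, threshold 0.05). SEs were derived from the F statistic, and normalised CPM used TMM library sizes. Start sites came from RefSeq's promoter table and spans from its gene table, both GRCh38.p14, the build of hg38. The script was tested on simulated data. DESeq2 was version 1.42.0.

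Named regions are the 8 largest rises and falls past the threshold without overlap between groups, the 6 highest levels per kb at a gene end, and ZNF91, ZNF93, ZNF274 and 8 genes reported as methylated in tumours, whatever their values; other genes were named after their values were seen. Members and lists were chosen with earlier results of these data known. The closing section gives the alternatives.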

Additional observations from a re-analysis of the deposited data

How the results depend on the processing

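ZNF regions called higher, 154 in the analysis above, numbered 56 with library totals, 20 with loess offsets, 93 at a mean count of at least 50 and 21 at an adjusted p under 0.01; those at gene-span ends, 131 above, numbered 49, 14, 79 and 18. Regions called lower, 4 above, fell to 2 at a mean count of at least 50, where fewer regions were tested. Leaving out 1 library gave 12 to 194 higher in all and 10 to 163 at span ends, 194 and 163 of them without DMSO replicate 3. The cause of these shifts was not tested, and shares over all regions with 1 library left out are not given here. The share of chromosome 19 counts kept its sign, at 1.00 to 1.28 percentage points with 1 library left out. ZNF584 changed sign with library totals (-0.055), loess (-0.19) and without DMSO replicate 2 (-0.0096), and passed the threshold without DMSO replicate 3 (0.28). Whether replicate numbers pair the libraries could not be settled from 3 libraries per group. Same-numbered deviations correlated at -0.16, 0.18 and -0.19, and differently numbered ones at -0.28 to 0.32. A fit with the number as a block called 112 higher, 97 at span ends, and 4 lower. DESeq2, its size factors, other margins, the wider gene family, a 2 kb boundary and, chosen after seeing the data, leaving out regions shared with other genes' starts (144 and 122 higher) kept the counts within 1.5 times. Low regions, such as the 4 falls, rest on few counts.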
